A study of Mus musculus with 4 samples.

Results

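Cells that carried the recombined reporter transcript were compared with cells that carried the unrecombined one inside Lats1/2 knockout hearts of the mouse embryo. The members were chosen by their own readout: knockout cells with at least 1000 UMIs (unique molecular identifiers, each counting 1 captured transcript), at most 20% mitochondrial UMIs, less than 1% of UMIs from Tnnt2, Actc1, Myh6 and Myh7, and UMIs of at least 2 of 11 epicardial and mesenchymal genes (Upk3b, Msln, Krt19, Aldh1a2, Tcf21, Spon2, Lsp1, Slc38a5, Col14a1, Dpp4 and Mfap5). Cells with at least 1 Egfp UMI formed the Egfp-positive side, 263 cells. Cells with 0 Egfp UMIs and at least 1 Tdtomato UMI formed the Egfp-negative side, 71 cells. Together they were 334 of 24849 deposited cells.

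The study profiled embryonic heart tissue by Drop-seq, which captures single cells in droplets with barcoded beads and sequences a short stretch close to the polyadenylated end of every captured transcript. There were 4 libraries, 1 per genotype and stage (E13.5 and E14.5, embryonic days). All 4 carried Wt1 CreERT2/+ and Rosa26mTmG/+, and the 2 knockout libraries (Lats1/2 CKO) also carried Lats1/2 F/F, conditional alleles of the Lats1 and Lats2 kinase genes that Cre can remove. The control libraries entered only the comparison of genotypes near the end. The number of embryos per library, the tamoxifen schedule and any sorting are not given in the sources used here. With 1 library per stage, the 2 stages served as the replicates. The p-values set each side difference against its variation between these libraries, estimated over many genes together, and cover no wider spread.

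The epicardium is the mesothelial sheet that covers the heart. Its cells carry keratins, uroplakins and mesothelin, rest on a basement membrane and express the transcription factors Wt1, Tbx18 and Tcf21. During development some of them leave the sheet by epithelial to mesenchymal transition and become fibroblasts and mural cells of the ventricular wall. CreERT2 is a Cre recombinase that enters the nucleus only in the presence of tamoxifen, and here it was driven from the Wt1 locus, which is active in epicardial cells. The mTmG reporter makes membrane tdTomato in every cell and switches for good to membrane EGFP where Cre has acted, also in the descendants of that cell. LATS1 and LATS2 are the kinases of the Hippo pathway that phosphorylate the coactivators YAP and TAZ and keep them out of the nucleus, where they act with TEAD factors on genes such as Cyr61, Ctgf and Amotl2.

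At E13.5 899 knockout cells passed the rule on depth and markers, of which 174 were Egfp-positive, 61 were Egfp-negative with Tdtomato, and 664 had neither reporter. At E14.5 342 cells passed, of which 89 were Egfp-positive, 10 were Egfp-negative with Tdtomato, and 243 had neither. Summed over cells, the Egfp-positive side held 804954 UMIs in the E13.5 library and 419145 in the E14.5 library, and the Egfp-negative side held 289564 and 68228. The E14.5 Egfp-negative side was thus 10 cells, and 1 of them held 33.1% of its UMIs. Median UMIs per cell were 3516.5 on the positive and 3765 on the negative side of the E13.5 library, 2162 and 4436.5 in the other. No cell barcode was shared between the members of different libraries, and library pairs shared 2 to 4 barcodes over all cells.

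Egfp itself, which chose the members, was at 865 CPM (UMIs per 1000000 UMIs of that side) on the positive side of the E13.5 library and at 752 CPM on that of the E14.5 library. Exactly 1 Egfp UMI was seen in 62 positive cells of the E13.5 library and in 36 of the other, exactly 2 in 28 and 15, and 3 or more in 84 and 38, with highest values of 22 and 33 UMIs. Tdtomato stood at 221 CPM and 161 CPM on the negative side, and 10 and 5 positive cells also had a Tdtomato UMI. Most cells that passed the marker rule had no reporter UMI at all, so a cell without an Egfp UMI is not shown to lack the transcript. In cells with at least 1% of UMIs from the 4 cardiomyocyte genes, which the selection leaves out, 9.30% had an Egfp UMI at E13.5 (median depth 3298 UMIs) and 4.42% at E14.5 (median 1799), against 19.4% (median 2906) and 26.0% of the cells that passed the rule. The Egfp share was therefore above the level of those cells in both knockout libraries. For Tdtomato the shares were 7.90% and 4.39% in cells that passed against 8.11% and 3.86% in cardiomyocyte-rich cells, whose intervals overlap. Just outside the marker threshold, 58 cells of the E13.5 library and 14 of the E14.5 library had an Egfp UMI with exactly 1 of the 11 genes, and just inside it 30 and 8 had one with exactly 2.

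Creert2, the transcript of the recombinase, was measured at 58.4 CPM on the positive and 51.8 CPM on the negative side at E13.5, and at 45.3 and 14.7 CPM (19 and 1 UMIs) at E14.5. Lats1 was at 22.4 CPM on the positive and 20.7 CPM on the negative side of the E13.5 library, and at 31.0 and 14.7 CPM in the other. Lats2 was at 23.6 and 31.1 CPM, and at 57.3 and 29.3 CPM. Each of these E14.5 negative values rests on 1 or 2 UMIs. A 3' tag need not lie in the exons that Cre removes, which the labels do not name, so these levels do not check the deletion.

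The Egfp-positive side held a larger share of cells with mesothelial transcripts. To compare cells of unequal depth, each cell was thinned at random to 1000 UMIs, and cells were counted that kept at least 2 mesothelial genes, out of 9 (Upk3b, Upk1b, Msln, Krt19, Krt7, Krt8, Krt18, Lrrn4 and Muc16). At E13.5 these were 71 of 174 positive cells, 40.8% (95% Clopper-Pearson interval 33.4 to 48.5%), 9 of 61 negative cells, 14.8% (7.0 to 26.2%), and 11.1% of the cells with neither reporter. At E14.5 they were 54 of 89 positive cells, 60.7% (49.7 to 70.9%), 0 of 10 negative cells, which allows a share of up to 30.8%, and 23.5% of the cells with neither reporter. The intervals of the 2 sides did not overlap at either stage. They cover counting error only, and 3 of the 9 genes belong to the rule, so the shares are given as a description without a test.

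**Figure D1:**
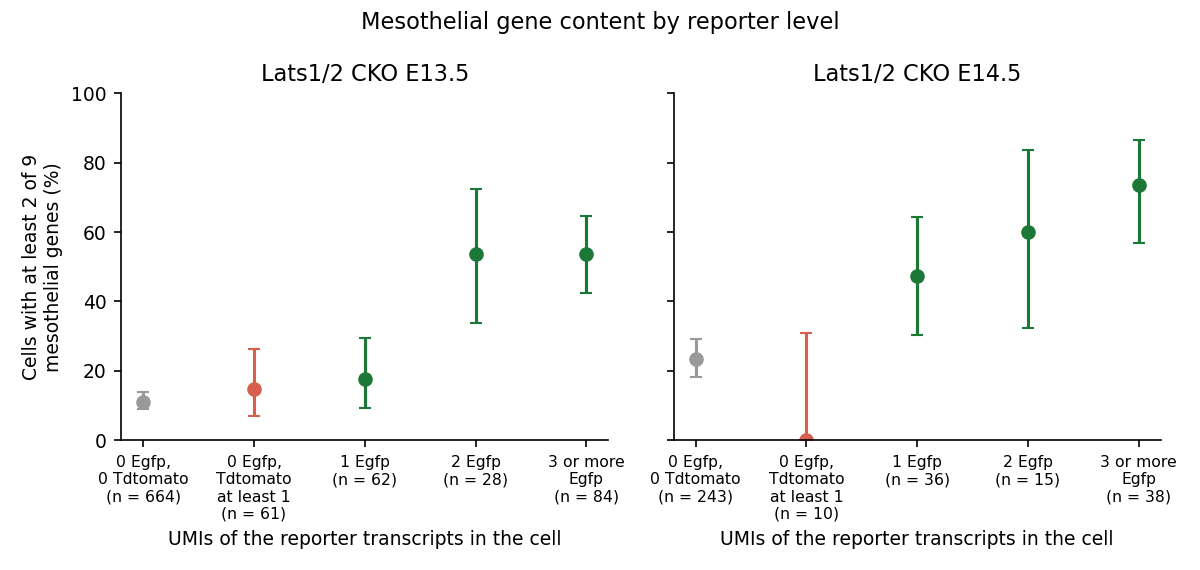
Share of knockout cells with at least 2 of 9 mesothelial genes after thinning to 1000 UMIs (y axis, %) by reporter UMIs (x axis), with 95% Clopper-Pearson intervals and the number of cells below. At E13.5 cells with 1 Egfp UMI sit at 17.7%, near the cells without Egfp, and cells with 2 or more at 53.6%; at E14.5 the shares are 47.2%, 60.0% and 73.7%.

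The share differed with the Egfp UMIs of a cell at E13.5, while at E14.5 the intervals overlapped. At E13.5 it was 17.7% in cells with 1 Egfp UMI (median depth 2999 UMIs), 53.6% in cells with 2 (median 2278) and 53.6% in cells with 3 or more (median 4124). At E14.5 it was 47.2% (interval 30.4 to 64.5%), 60.0% (32.3 to 83.7%) and 73.7% (56.9 to 86.6%), at median depths of 1662, 2106 and 2946.5 UMIs. The E13.5 cells with a single Egfp UMI thus lay within the interval of the negative side, and their Upk3b level, 416 CPM, was below the 532 CPM of the negative cells, where cells with 2 Egfp UMIs had 1568 CPM and cells with 3 or more 1739 CPM. Col1a1, the main fibrillar collagen chain, was likewise near the 1385 CPM of the negative side in E13.5 cells with 1 Egfp UMI, at 1518 CPM, and reached 3545 CPM with 2 and 3389 CPM with 3 or more. At E14.5 Col1a1 was already at 5120 CPM with 1 Egfp UMI, and stood at 3852 and 4315 CPM with 2 and with 3 or more.

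The genes of the rule divided in the same manner. Upk3b, a uroplakin of the mesothelial surface, was seen in 43.1% of thinned positive and 13.1% of negative cells at E13.5, and in 58.4% and 0 of 10 at E14.5. Msln, mesothelin, was seen in 20.7% and 1.6% and in 40.4% and 0 of 10. Krt19, a keratin, was seen in 17.8% and 1.6% and in 36.0% and 0 of 10. Aldh1a2, the retinoic acid synthesis enzyme of the epicardium, was seen in 22.4% and 4.9% at E13.5 but in 19.1% and 2 of 10 cells at E14.5. The 3 mesothelial surface and keratin genes were thus seen in a larger share of positive cells in both libraries. At E14.5 the 0 of 10 negative cells allow a share of up to 30.8%.

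The other genes of the rule had no common direction. Tcf21, the transcription factor of cardiac fibroblast precursors, was seen in 25.9% of positive and 34.4% of negative cells at E13.5 and in 20.2% and 2 of 10 at E14.5. Col14a1, a fibril-associated collagen, was seen in 19.0% and 31.1% and in 15.7% and 3 of 10. Mfap5, a microfibril protein, was seen in 4.0% and 11.5% and in 1.1% and 2 of 10. Dpp4, a surface peptidase, leaned to the positive side, with 39.7% and 26.2% at E13.5 and 41.6% and 3 of 10 at E14.5, and so did Spon2, with 31.6% and 18.0% and with 44.9% and 2 of 10. Intervals of the 2 sides overlapped for each of these 5 genes. At least 1 of Tcf21, Col14a1 and Mfap5 was kept by 39.7% of positive and 59.0% of negative cells at E13.5 (30.3% and 5 of 10 at E14.5), and 8.6% and 9.0% of positive cells kept 1 of these together with Upk3b, Msln or Krt19.

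**Figure D2:**
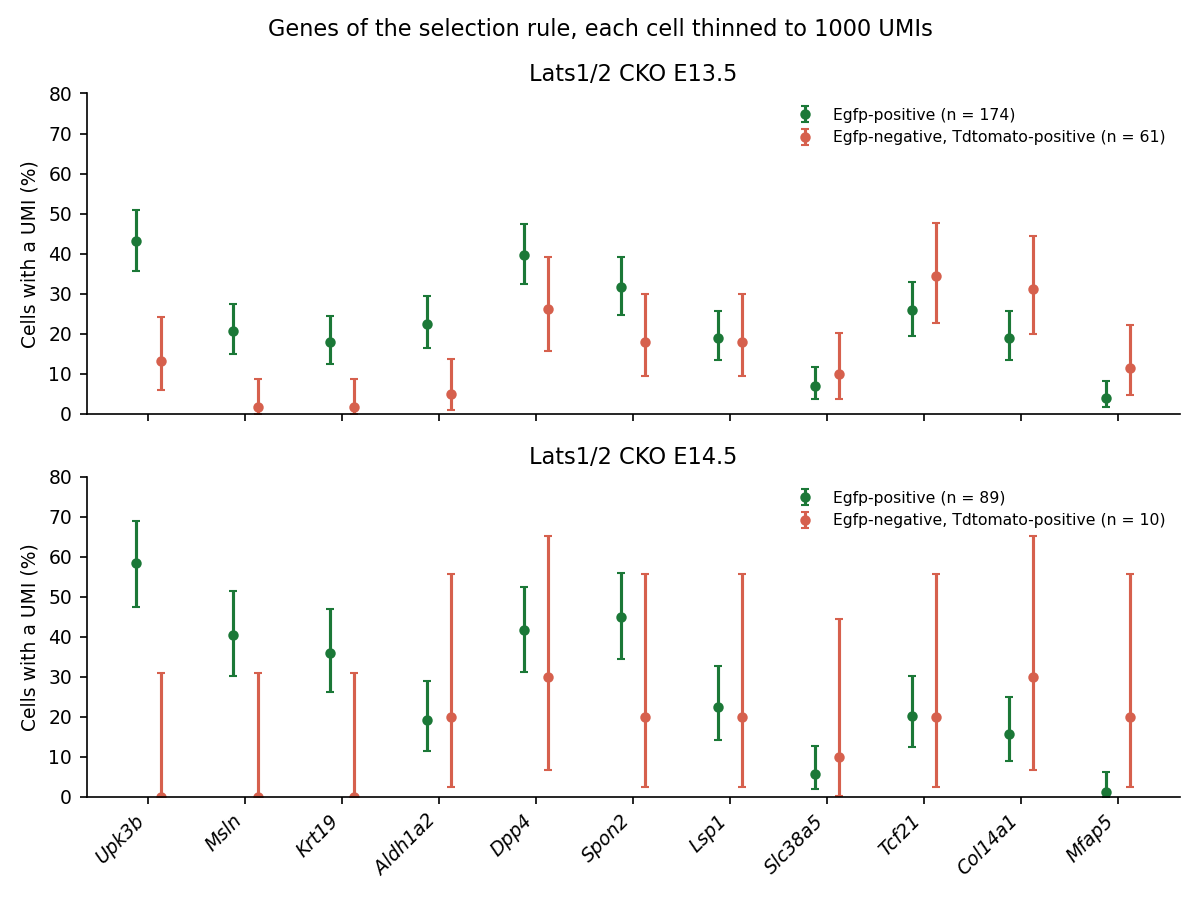
Share of cells with a UMI of each gene used by the selection rule (y axis, %), each cell thinned to 1000 UMIs, with 95% Clopper-Pearson intervals, for both sides in each knockout library. Upk3b, Msln and Krt19 stand higher on the Egfp-positive side at both stages, and Tcf21, Col14a1 and Mfap5 do not.

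Beyond the genes of the rule, counts were summed per side and library and fitted with edgeR's quasi-likelihood test, with the library as a block and Benjamini-Hochberg adjustment over all genes tested. A gene is named called where the adjusted p was below 0.05, and called genes are said to have risen or fallen. Where levels are given in 2 pairs, each pair is the positive against the negative side, E13.5 first and E14.5 after it. Of 6973 genes tested, 82 were called higher on the Egfp-positive side, which is 1.18% of them, and 59 were called lower, which is 0.846%. Of the 141 called genes, 140 had the same sign in both libraries. At an unadjusted p below 0.05 there were 320 higher and 245 lower genes. The fit has 1 residual degree of freedom, and the spread behind each p was taken from the trend over all genes. It does not measure the spread of the single gene. DESeq2 on the same sums called 0 higher and 1 lower gene (76 and 59 at an unadjusted p below 0.05), and a fit without the library block called 0 and 0. With the block, edgeR called 0 and 0 in cells of at least 2000 UMIs, and 4 and 1 in cells with at least 3 marker genes. The counts of called genes below are therefore tied to edgeR with the block and to the cells as chosen. The levels in each library are given beside them. In a second comparison the positive side was set against every knockout cell that passed the rule and had 0 Egfp UMIs, 725 cells in the E13.5 library and 253 in the E14.5 library. That comparison shares the positive cells with the first. It called 342 of 9503 genes higher (3.6%) and 246 lower (2.59%), and with DESeq2 79 and 29. Of the 141 genes called in the first comparison, 133 were called with the same sign in the second.

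Many genes of the epicardial sheet were higher in Egfp-positive cells. Of 17 tested members of an epicardial list outside the 13 genes of the rule, 7 rose (Upk1b, Gpm6a, Rarres2, Lrrn4, Krt18, Efemp1 and Krt7), 1 fell (Igfbp5), and the median log2 fold change was 1.55, against 0.03 over all genes tested. Upk1b, a uroplakin (chromosome 16, 38773184 to 38800328 in mm10, minus strand), stood at 217 CPM on the positive and 76.0 CPM on the negative side at E13.5 and at 315 and 0 CPM at E14.5. With the floor of 3 UMIs for the empty side, its E14.5 level was at least 7.16-fold higher, and edgeR gave a log2 fold change of 2.22 (SE 0.42, adjusted p = 4.02e-05). Gpm6a, a membrane glycoprotein, reached 212 against 79.4 CPM, then 289 against 0 CPM. Rarres2, the secreted chemerin precursor, reached 379 against 159 CPM, then 496 against 87.9 CPM. Positive levels were above negative ones for all 3 genes in both libraries. Krt18, a keratin of simple epithelia, reached 134 against 55.3 CPM, then 277 against 0 CPM (log2 fold change 2.09, SE 0.46, adjusted p = 0.000801), while its partner Krt8 reached 29.8 against 37.99 CPM, then 112 against 0 CPM and was not called. Against every Egfp 0 cell, 15 of 18 tested list members were called higher and 1 lower. Once cells carrying markers of other cell types were also left out, 11 of 18 were called higher by edgeR, Igfbp5 now among them, and 0 lower.

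Of the epicardial transcription factor and signalling list, 3 of 12 tested genes rose and 0 fell. Wt1, which also drives the recombinase (chromosome 2, 105126529 to 105173616 in mm10, plus strand), stood at 116 CPM on the positive and 37.99 CPM on the negative side at E13.5, and at 208 and 0 CPM at E14.5, at least 4.72-fold higher there. Its log2 fold change was 2.30 (SE 0.52, adjusted p = 0.00115). Tbx18, a T-box factor of the epicardium, reached 180.1 against 86.3 CPM, then 236 against 0 CPM, and Sema3d, a secreted semaphorin, reached 241 against 121 CPM, then 303 against 29.3 CPM. Every positive level of these 3 genes exceeded both negative levels. Tcf21 and Aldh1a2 belong to the rule and were not tested.

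Basement membrane and junction genes moved in part. Fras1, an extracellular matrix protein that anchors epithelia to the basement membrane, reached 144 against 27.6 CPM, then 260.1 against 0 CPM, with a log2 fold change of 3.03 (SE 0.53, adjusted p = 6.2e-06). Of 18 tested basement membrane genes, 3 rose and 2 fell. Nid2, nidogen 2, reached 322 against 114 CPM, then 410.4 against 73.3 CPM, and Npnt, nephronectin, reached 165 against 55.3 CPM, then 236 against 0 CPM. Lama4, the laminin chain of vessel walls, fell, with 108 against 304 CPM, then 103 against 425 CPM, and so did the integrin Itga6, with 59.6 against 76.0 CPM, then 47.7 against 439.7 CPM. Against every Egfp 0 cell, without cells carrying markers of other cell types, Lama4 was still called lower and Itga6 was not. Lama4 had a log2 fold change of -1.12 there (adjusted p = 0.000307 by edgeR). Both genes are also known in endothelium, and the part of endothelial cells in their fall was not tested. Of 13 tested junction and polarity genes only Ezr was called, higher. Ezr, ezrin, links membrane and actin at the apical side of epithelia and reached 358 against 152 CPM, then 487 against 0 CPM, at least 11.1-fold higher at E14.5 (log2 fold change 2.07, SE 0.36, adjusted p = 7.06e-06).

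**Figure D3:**
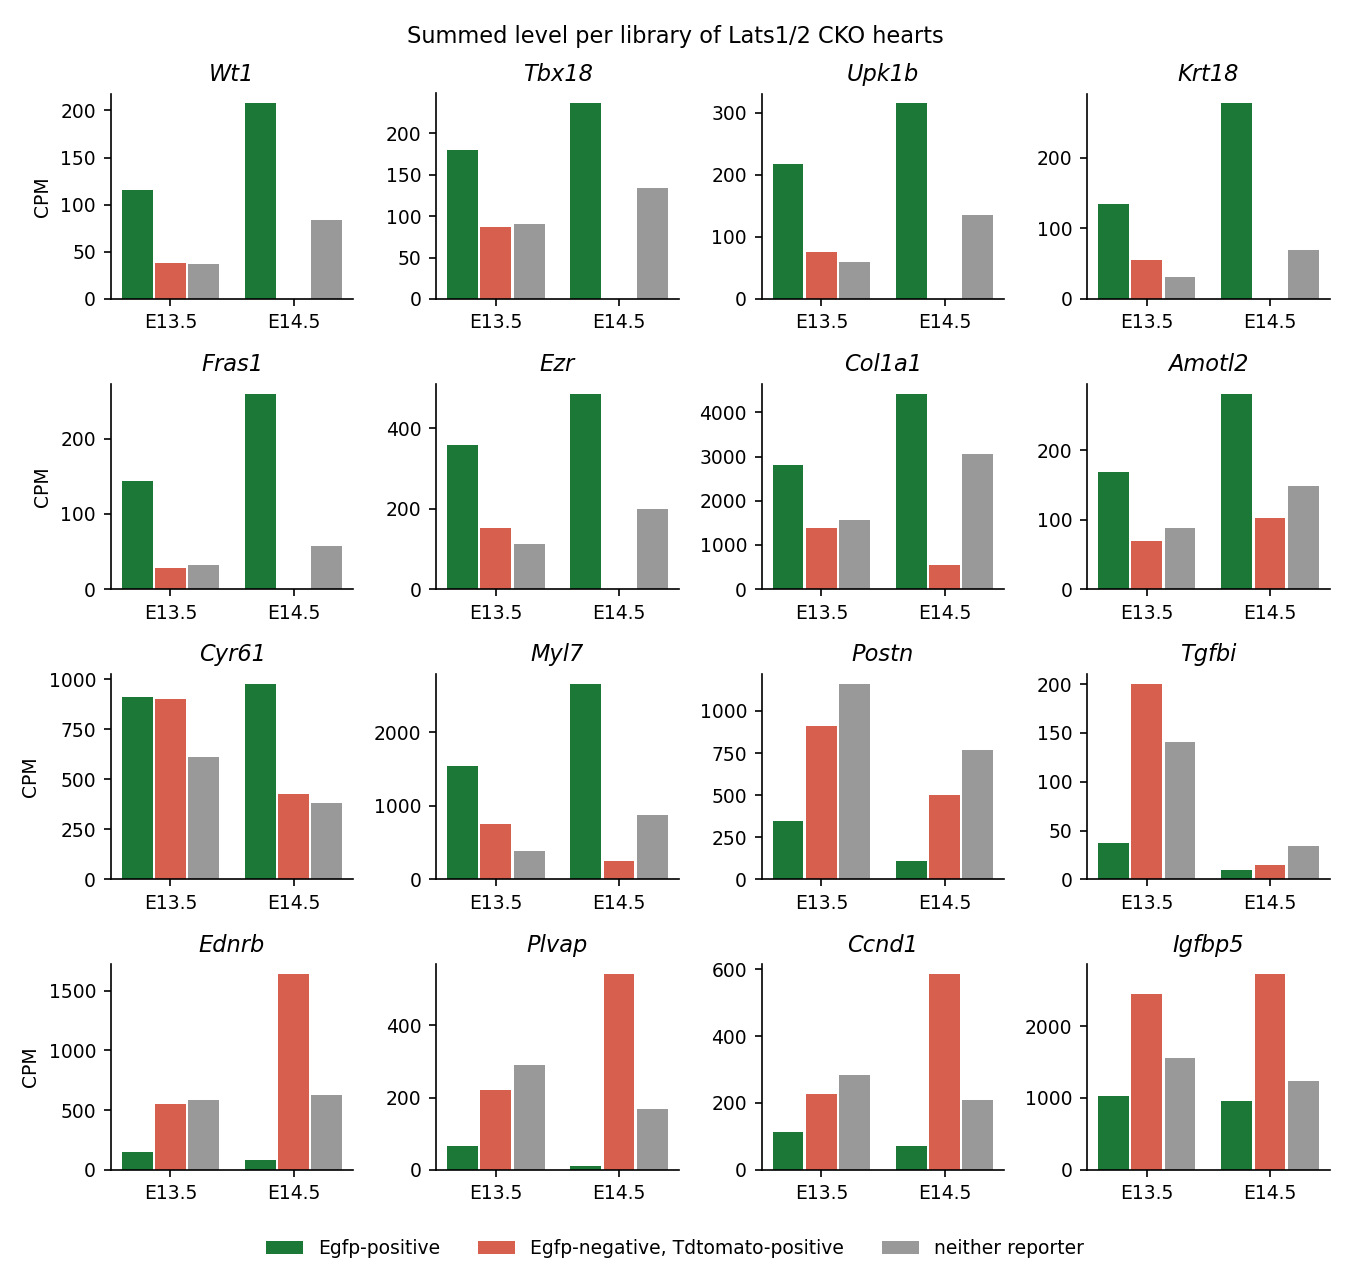
Level of 16 genes in CPM (y axes, each from 0) in the summed Egfp-positive cells, the summed Egfp-negative, Tdtomato-positive cells and the summed cells with neither reporter of each knockout library; 1 value per library, so no error bars. Epicardial genes and Col1a1 are highest in the Egfp-positive cells at both stages, and Postn, Ednrb and Plvap are lowest there.

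The matrix genes of fibroblasts did not move as 1 block. Of 20 tested genes of the fibroblast list, 6 rose (Col1a1, Col1a2, Sparc, Col3a1, Dcn and Ogn) and 2 fell (Postn and Lum), with a median log2 fold change of 0.50. Col1a1 stood at 2800 CPM on the positive and 1385 CPM on the negative side at E13.5 and at 4428 and 542 CPM at E14.5. Its log2 fold change was 1.98 (SE 0.29, adjusted p = 1.35e-08). Col1a2, the second chain of type I collagen, reached 5084 against 2891 CPM, then 6413 against 1275 CPM. Sparc, a collagen-binding matricellular protein, reached 6136 against 3681 CPM, then 7635 against 2506 CPM. Col3a1 reached 5303 against 4244 CPM, then 4268 against 909 CPM. The positive side was above the negative one in both libraries for these 4 genes, by more at E14.5 than at E13.5, but against every Egfp 0 cell Col3a1, Dcn and Ogn were no longer called, the first with adjusted p = 0.0879 and Dcn with adjusted p = 0.133 by edgeR. In that comparison 3 of 22 tested genes of the list were called higher (Col1a1, Sparc and Col1a2) and 4 lower (Postn, Vcan, Lum and Dpt), with a median log2 fold change of 0.05. Without cells carrying markers of other cell types, 0 of 17 tested were called higher and 2 lower (Postn and Lum), and Col1a1 was at a log2 fold change of 0.81 (adjusted p = 0.614 by edgeR).

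Postn, periostin, a matricellular protein of mesenchyme and valves, fell: it stood at 349 CPM on the positive and 912 CPM on the negative side at E13.5 and at 109.7 and 498 CPM at E14.5 (log2 fold change -1.65, SE 0.31, adjusted p = 4.45e-05 by edgeR). The cells with neither reporter were higher still, at 1161 and 767 CPM. Lum, lumican, a small leucine-rich proteoglycan, reached 200.01 against 705 CPM, then 35.8 against 44.0 CPM, where the negative value rests on 3 UMIs. Tgfbi, a matrix protein induced by TGF-beta, reached 37.3 against 200.3 CPM, then 9.5 against 14.7 CPM, with 1 negative UMI at E14.5, and it fell with a log2 fold change of -2.18 (SE 0.52, adjusted p = 0.00243 by edgeR). By Egfp UMIs, Tgfbi at E13.5 was at 83.9 CPM in cells with 1, 19.0 CPM with 2 and 13.7 CPM with 3 or more. Tgfbr3, the TGF-beta coreceptor betaglycan, was the other called gene of the TGF-beta list, in which 2 of 14 tested genes fell and 0 rose. It reached 8.70 against 41.4 CPM, then 2.39 against 87.9 CPM, from 7 and 1 positive UMIs. Of 16 tested transition genes, 0 were called in either direction. That list included Vim, the intermediate filament of mesenchyme, at 2870 against 3357 CPM, then 2131 against 3518 CPM, and Pdgfra, a fibroblast receptor, at 90.7 against 135 CPM, then 40.6 against 73.3 CPM. At an unadjusted p below 0.05 there were 0 higher and 1 lower gene in it, and DESeq2 called 0. Against every Egfp 0 cell 4 of 17 tested transition genes were called lower by edgeR (Sox9, Zeb2, Prrx1 and Tagln) and 0 higher, with a median log2 fold change of -0.40, and DESeq2 called 0.

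Among targets of YAP and TAZ, 2 genes were called on the main sides. Of 20 tested genes of that list, 2 rose and 0 fell, where 1.18% of all genes tested rose and 0.846% fell. The median log2 fold change was 0.25 against 0.03 over all genes, and 4 were higher at an unadjusted p below 0.05. Amotl2, an angiomotin that binds YAP and is itself a target, stood at 169 CPM on the positive and 69.1 CPM on the negative side at E13.5 and at 282 and 103 CPM at E14.5 (log2 fold change 1.40, SE 0.40, adjusted p = 0.0268 by edgeR). Wwc1, the upstream Hippo component KIBRA, reached 49.7 against 10.4 CPM, then 78.7 against 0 CPM, and it was the only called member of 19 tested Hippo genes. Both Amotl2 and Wwc1 were higher on the positive side in each library. Cyr61, a secreted matricellular protein, reached 913 against 901 CPM, a difference within counting error, then 978 against 425 CPM. Ctgf, its relative, reached 139 against 245 CPM, then 215 against 147 CPM, and Ankrd1, a nuclear ankyrin protein, reached 65.8 against 76.0 CPM, then 293 against 103 CPM. These 3 were not called, and the sides changed order between stages for Ctgf and Ankrd1. Against every Egfp 0 cell, 5 of 21 tested members were called higher, Cyr61 among them (log2 fold change 0.86, adjusted p = 2.72e-07 by edgeR), and 0 lower. Over all genes, 3.6% were called higher in that comparison. Without cells carrying markers of other cell types, 0 of 12 members were called on the main sides (4 above and 8 below 0, median -0.19). Against every Egfp 0 cell without them, 2 of 20 were called higher (median 0.08). In cells with at least 2 mesothelial genes 0 of 19 were called against Egfp 0 cells (median -0.03). In cells with fewer, 3 of 20 were called higher (median 0.27). Yap1 reached 52.2 against 82.9 CPM, then 57.3 against 0 CPM, and Wwtr1, which encodes TAZ, reached 95.7 against 124 CPM, then 83.5 against 103 CPM; neither was called.

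The promoters of Amotl2, called on the main sides, and Cyr61, called against every Egfp 0 cell but not on the main sides, are printed to show where the motif of the TEAD factors lies in them. TEAD proteins bind the letters CATTCC, read as GGAATG on the other strand, and both were searched in windows from 250 bases before to 50 bases after each RefSeq start (assembly GRCm38.p6, with Cyr61 listed there as Ccn1). Capitals mark the match, and the sequences run 5′ to 3′ on the strand of the gene. The Amotl2 window is chr9:102717554-102717853 on the plus strand and the Cyr61 window chr3:145649936-145650235 on the minus strand.
Amotl2: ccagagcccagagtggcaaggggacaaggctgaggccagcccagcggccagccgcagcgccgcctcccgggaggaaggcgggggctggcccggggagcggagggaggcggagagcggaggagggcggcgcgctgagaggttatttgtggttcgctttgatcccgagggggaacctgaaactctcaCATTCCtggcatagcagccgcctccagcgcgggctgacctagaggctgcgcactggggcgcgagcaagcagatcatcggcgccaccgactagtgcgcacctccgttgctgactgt
Cyr61: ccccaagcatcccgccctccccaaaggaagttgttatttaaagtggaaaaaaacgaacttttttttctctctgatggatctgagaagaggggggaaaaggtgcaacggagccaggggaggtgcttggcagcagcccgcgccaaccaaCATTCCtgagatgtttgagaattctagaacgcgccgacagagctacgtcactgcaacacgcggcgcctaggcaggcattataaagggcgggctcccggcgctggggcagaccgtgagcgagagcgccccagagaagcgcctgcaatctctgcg
Each of these windows held 1 match, and that of Wwc1, the other called gene above, held 0. A match was present in 14.7% of all 32851 windows, in 12.1% of those of tested genes, in 14.9% of the 67 windows matched to genes called higher and in 16.3% of the 49 windows matched to genes called lower. The motif was thus present at about the same rate in the windows of genes called in either direction as in all windows.

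Endothelial and endocardial genes were lower in Egfp-positive cells. Of 12 tested markers of these cells, 8 fell and 0 rose (Plvap, Ramp2, Emcn, Fabp4, Icam2, Kdr, Npr3 and Cdh5), with a median log2 fold change of -1.68. Plvap, a protein of endothelial fenestrae, stood at 64.6 CPM on the positive and 221 CPM on the negative side at E13.5 and at 9.5 and 542 CPM at E14.5 (log2 fold change -2.99, SE 0.39, adjusted p = 9.58e-11 by edgeR). Ednrb, an endothelin receptor, reached 144 against 553 CPM, then 78.7 against 1642 CPM, and it was the single gene that DESeq2 also called (adjusted p = 0.00225). Ramp2, a subunit of the adrenomedullin receptor, reached 282 against 542 CPM, then 78.7 against 1070 CPM. Kdr, a VEGF receptor, reached 39.8 against 104 CPM, then 64.4 against 425 CPM. For each of these 4 genes both negative values lay above both positive ones.

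For Fabp4 the E13.5 levels were 14.9 and 10.4 CPM, so its fall rests on the E14.5 library (115 and 909 CPM), where 39 of 62 negative UMIs came from 1 cell. With at least 3 marker genes per cell, which left 37 and 4 negative cells, the log2 fold changes of Kdr, Fabp4, Itga6 and Igfbp5 were above 0.

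The E14.5 negative sum of these markers leaned on 1 cell. At E14.5 9 of the 10 negative cells had a UMI of the 14 endothelial and endocardial markers, 6 had at least 2 of the genes, and the cell with the most UMIs held 49.9% of the summed marker UMIs. The summed level was 5848 CPM there, and 4381 CPM without that cell, against 907 CPM on the positive side. At E13.5 the sums were 1189 CPM on the positive and 2031 CPM on the negative side. There 58 of 174 and 32 of 61 cells held at least 2 of the genes. The cell with the most UMIs over all genes held 19.4% of the positive and 1.87% of the negative marker sum. Without these cells the sums were 991 and 2158 CPM. Whether another cell held a larger part of the marker UMIs was not examined. All 14 markers were detected on both sides at both stages. Cells that carry rule genes together with endothelial genes were thus part of both sides, and the part of such cells in the differences between sides was not tested for single genes. Without cells that had at least 2 genes of the endothelial, macrophage or erythroid lists, 115 and 64 positive and 27 and 4 negative cells were left. Of 2858 genes then tested, edgeR called 13 higher and 4 lower (DESeq2 was not run on them). Of the genes called on the whole sides, Apela, Efemp1, Ezr, Golm1, Gpm6a, Jun, Krt7, Ly6e, Myl7, Smim1 and Sulf1 were called higher there too and Postn and Lum lower. The log2 fold change was 3.69 for Ezr, 3.18 for Krt7, 2.33 for Myl7, 1.46 for Jun, -1.98 for Postn and -1.67 for Lum. Against every Egfp 0 cell without those cells, 121 genes were called higher and 45 lower.

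Other cell types differed less regularly. The summed level of 15 cardiomyocyte markers was 3280 CPM on the positive and 2473 CPM on the negative side at E13.5 and 4979 and 3371 CPM at E14.5. The selection capped Tnnt2, Actc1, Myh6 and Myh7 at less than 1% of the UMIs of each cell, which limits such sums. Only Myl7, the atrial type myosin light chain, was called among 14 tested. It reached 1543 against 759.8 CPM, then 2660 against 249 CPM (log2 fold change 2.06, SE 0.30, adjusted p = 2.27e-08 by edgeR), and the other 14 markers summed to 1737 against 1713 CPM, then 2319 against 3122 CPM. Without Myl7 the cardiomyocyte markers were thus not higher on the positive side at E14.5. Erythroid markers summed to 2881 against 4628 CPM, then 1055 against 953 CPM at E14.5. Hbb-y, an embryonic globin, was called higher, but 477 of its 734 positive UMIs at E13.5 came from 1 cell, and against every Egfp 0 cell its log2 fold change was -0.80. Macrophage markers summed to 57.1 against 155 CPM, then 134 against 29.3 CPM, and valve markers to 293 and 635 CPM and to 291 and 147 CPM. Of the 12 macrophage markers, 5 and 1 were at 0 on the positive side and 3 and 10 on the negative side, and Ptprc, the pan-leukocyte marker, was at 0 on both sides of both libraries. Csf1r, a receptor known from macrophages, was called higher, with 43.5 against 6.9 CPM, then 54.9 against 0 CPM. Mural markers summed to 1114 against 1440 CPM, then 692 against 528 CPM. Markers of liver and other epithelia summed to 3.73 and 6.91 CPM at E13.5 and were all at 0 at E14.5. The part of any of these cell types in the differences between sides was not tested.

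Of the remaining genes with the largest called changes, the positive side was higher for Ptgds (prostaglandin D synthase), with 34.8 against 3.5 CPM, then 47.7 against 0 CPM, and for Lrrtm1, a leucine-rich membrane protein, with 48.4 against 6.9 CPM, then 50.1 against 0 CPM. Those 2 genes rest on 28 and 39 positive UMIs at E13.5. Maf, a leucine zipper transcription factor, reached 106 against 34.5 CPM, then 234 against 0 CPM, Cdon, a Hedgehog coreceptor, reached 77.0 against 17.3 CPM, then 138 against 0 CPM, and Nupr1, a stress-induced nuclear protein, reached 74.5 against 20.7 CPM, then 143 against 0 CPM. B3gnt7, Ddit4l, Thsd7a, Egfl6, Plscr2, Mbp and Ildr2 completed the 15 genes with the largest called increases, and edgeR's log2 fold changes of the 15 ran from 2.35 to 3.66. The 15 were chosen to have the same sign in both libraries, so their shared direction is no separate result. Among the 15 largest called decreases, Klhl4, Lgals9, Gngt2, Flt1, Tspan18, Ggta1, Gng11 and Pdlim3 stood beside the genes above. Ccnd1, the G1 cyclin D1, also fell, with 113 against 228 CPM, then 71.6 against 586 CPM (log2 fold change -1.83, SE 0.34, adjusted p = 3.49e-05 by edgeR).

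Cell cycle lists were not called. Of 23 tested S phase genes and 25 tested G2/M genes, 0 were called by edgeR in either direction. At an unadjusted p below 0.05 there were 0 and 0 S phase and 3 higher and 0 lower G2/M genes, and DESeq2 called 0. On the main sides 23 of the 25 G2/M genes were above 0, with a median log2 fold change of 0.52 against 0.03 over all genes. Against every Egfp 0 cell 11 were above and 15 below 0, with a median of -0.03. Mki67, a proliferation marker, reached 273 against 142 CPM, then 184 against 132 CPM. Cdkn1c, a CDK inhibitor, reached 1892 against 1430 CPM, then 1949 against 4969 CPM, where 261 of the 339 negative UMIs came from 1 cell. Among early response genes, 2 of 18 rose, Egr1 (940.4 and 818 CPM, then 883 and 58.6 CPM) and Jun (735 and 442 CPM, then 647 and 235 CPM). Slc2a1, the glucose transporter GLUT1, was the only called gene of 17 in the glycolysis and hypoxia list, at 118 against 51.8 CPM, then 222 against 29.3 CPM. The metallothionein Mt1 reached 133 against 121 CPM, then 358 against 29.3 CPM and was not called (adjusted p = 0.147 by edgeR). Of the 9 tested genes of its list 0 were called by edgeR or DESeq2, with 3 higher and 0 lower at an unadjusted p below 0.05. In the comparison with every Egfp 0 cell, Mt1 (log2 fold change 1.63, adjusted p = 4.62e-15 by edgeR) and Mt2 (2.34, adjusted p = 1.76e-09 by edgeR) were called higher among 10 tested, and DESeq2 called both. Of 8 tested p53 targets, 7 retinoid genes and 20 actin genes, 0 were called by edgeR or DESeq2, with 4, 1 and 1 higher and 0 lower at an unadjusted p below 0.05. Against every Egfp 0 cell edgeR called 4 of 12 p53 targets higher (Btg2, Ccng1, Cdkn1a and Phlda3), 1 of 12 retinoid genes higher (Aldh1a1) and 3 of 21 actin genes lower (Tpm2, Tagln and Tuba1a), and DESeq2 called 0 in each list. In that comparison edgeR called 8 of 19 early response genes higher, 2 of 19 glycolysis and hypoxia genes higher and 0 of the 25 S phase and 26 G2/M genes. Igf2, a growth factor of the epicardium, was not called, at 5615 against 6206 CPM, then 5614 against 6522 CPM.

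Because the sides differed in mesothelial content, they were next compared inside cells of like content, divided by the 9 mesothelial genes. With fewer than 2 of them there were 103 positive and 52 negative cells in the E13.5 library, and 35 and 10 in the other. Of 4673 genes tested in these, 7 rose (0.15%) and 3 fell (0.0642%) by edgeR, and 150 were higher and 114 lower at an unadjusted p below 0.05. With relative log expression size factors in place of TMM the calls were 32 and 25, and DESeq2 called 0 and 1. The genes that rose were Myl7, Hbb-y, Ezr, Golm1, Hba-a1, S100a6 and Aebp1, and the genes that fell were Ednrb, Igfbp5 and Plvap. Myl7 stood at 526 and 104 CPM in these cells at E13.5 and at 961 and 249 CPM at E14.5 (log2 fold change 2.17, SE 0.31, adjusted p = 0.00175 by edgeR). Ezr reached 107 against 8.6 CPM, from 49 and 2 UMIs, then 139 against 0 CPM. All haemoglobin genes summed to 4370 against 661 CPM, then 856 against 967 CPM. The calls of Hbb-y and Hba-a1 did not hold against every Egfp 0 cell of this class, where Hba-a1 was called lower (log2 fold change -0.79, adjusted p = 0.0374 by edgeR), as were Hbb-bs, Hbb-bt and Hba-a2, while Hbb-y was at 0.13 and not called. Aebp1, a collagen-associated carboxypeptidase-like protein, reached 232 against 86.4 CPM, then 484 against 132 CPM. Myl7, Ezr and Aebp1 were thus higher with Egfp also in cells with fewer than 2 mesothelial genes at that depth. The part of remaining mesothelial content in these differences was not tested. Igfbp5, a binding protein of insulin-like growth factors, reached 725 against 2139 CPM, then 611 against 2726 CPM, although in all cells its sign turned without cells of other types (log2 fold change 1.17). Against every Egfp 0 cell without those types, Igfbp5 was called higher by edgeR. The summed endothelial markers in the divided cells were 1722 and 2325 CPM at E13.5 and 1606 and 5848 CPM at E14.5, and their part in Ednrb, Plvap and Igfbp5 was not tested.

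With at least 2 mesothelial genes there were 71 positive and 9 negative cells at E13.5 but 54 and 0 at E14.5, so the sides could not be compared in these cells. They were compared with every Egfp 0 mesothelial cell instead, 83 cells in the earlier and 57 in the later library, a choice made after the counts were seen. Of 5331 genes tested there, 0 rose (0.0%) and 9 fell (0.169%) by edgeR, 96 were higher and 110 lower at an unadjusted p below 0.05, and DESeq2 called 0 and 3. None of the genes that rose in the comparison of all cells was thus called here. Wt1 reached 201 against 114 CPM, then 259 against 192 CPM, Fras1 reached 287 against 242 CPM, then 372 against 192 CPM, Amotl2 reached 207 against 148 CPM, then 259 against 184 CPM, and Ezr reached 686 against 735 CPM, then 748 against 708 CPM. Over the 78 genes called higher in all cells that are not among the 9, the median log2 fold change was 0.18 in mesothelial cells. Against the same Egfp 0 cells it was 1.03 in the 70 of them tested in cells with fewer than 2 mesothelial genes and 1.37 in all cells. These medians describe genes chosen by the first comparison, in classes not matched for mesothelial content. The difference between the classes of cells was not tested.

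**Figure D4:**
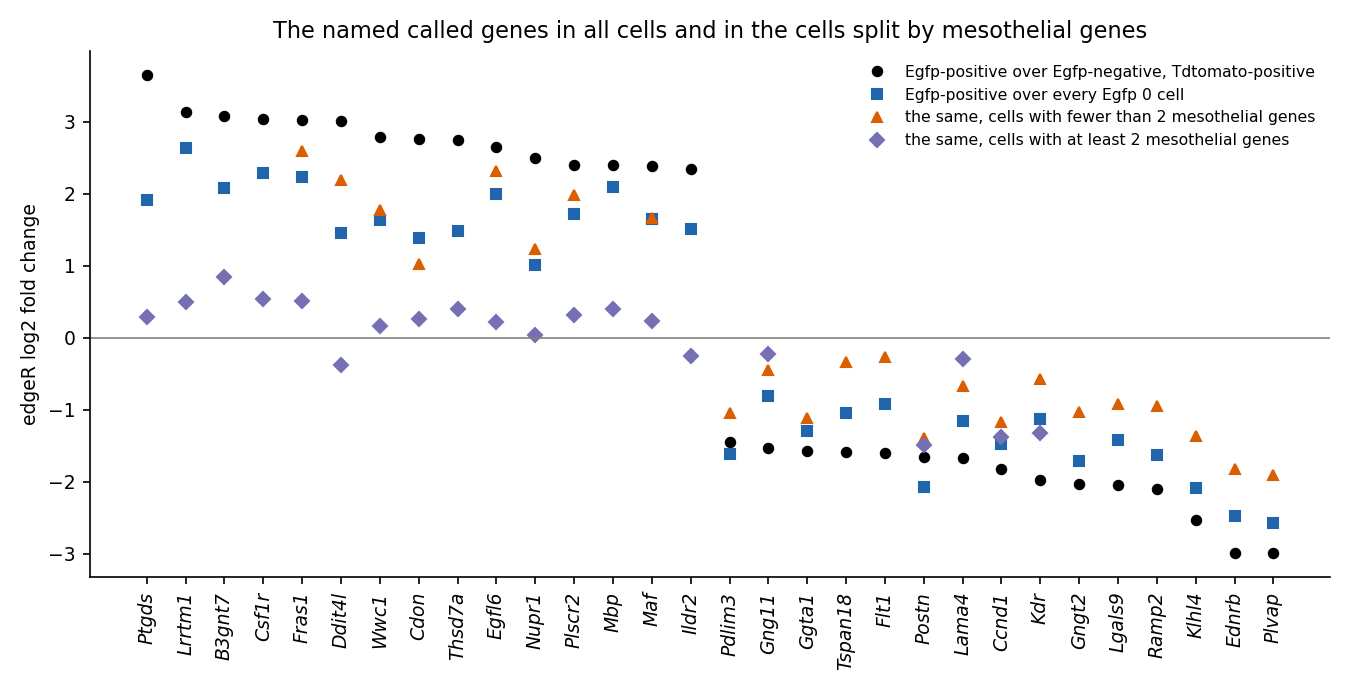
edgeR log2 fold change (y axis) of the 15 largest called increases and the 15 largest called decreases that met the minimum counts (x axis), for the sides as defined, for Egfp-positive over every Egfp 0 cell, and for the latter in cells with fewer than 2 and with at least 2 mesothelial genes; a missing symbol means the gene was not tested there. In mesothelial cells the increases lie between -0.37 and 0.84, while Postn, Ccnd1 and Kdr lie below -1, Postn with opposite signs in the 2 libraries.

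The 9 genes that fell in Egfp-positive mesothelial cells were 6 globins (Hba-a1, Hba-a2, Hba-x, Hbb-bs, Hbb-bt and Hbb-y), the mitochondrial ribosomal RNA mt-Rnr2, Eln and Sfrp2. Mitochondrial UMIs were capped by the selection, so the call of mt-Rnr2 is only a description. Summed over all globins, the level was 1145 CPM in positive and 9705 CPM in Egfp 0 mesothelial cells at E13.5 and 1200 and 5725 CPM at E14.5. Median depth was 3811 and 2437 UMIs per cell in the E13.5 library, 2192 and 1517 in the other, so the cells with more globin were also the shallower ones, and the part of free RNA or depth in it was not tested. Eln, elastin, reached 462 against 1174 CPM, then 276 against 621 CPM (log2 fold change -1.28, SE 0.16, adjusted p = 0.00107 by edgeR). Sfrp2, a secreted Wnt antagonist, reached 267 against 727 CPM, then 96.1 against 192 CPM. Both were lower with Egfp at both stages in this comparison. On the main sides over all cells, both were lower at E13.5 but higher at E14.5, at log2 ratios of 2.28 and 2.96.

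To see whether the difference between sides was particular to knockout hearts, the same sides were formed in the control libraries, 39 and 30 cells in the E13.5 library, 12 and 7 in the other, and the side effects were compared by an interaction term over 8 sums. Egfp on the control positive side stood at 279.8 and 263 CPM. In the control E14.5 library the Egfp share of cells that passed the rule, 4.71%, was not above the 4.84% of cardiomyocyte-rich cells, so its positive side cannot be told apart from that background. Of 6889 genes tested, 2 had a higher side effect in the knockout (0.029%) and 1 a lower one (0.0145%) by edgeR, 104 and 84 at an unadjusted p below 0.05, and DESeq2 called 0 and 0. The 3 genes were Myl7 and Hbb-y, higher, and Kcne3, lower, the last from UMIs of single cells. Myl7, which stood at 1170 and 1391 CPM in controls at E13.5 and at 789.6 and 1092 CPM at E14.5, had an interaction of 2.18 log2 units (SE 0.47, adjusted p = 0.0103 by edgeR), and it remained called against every Egfp 0 cell (1.11, adjusted p = 0.00086). Col1a1 stood in controls at 1948 against 2153 CPM, then 2778 against 2817 CPM, and its interaction of 1.83 (SE 0.44) missed the threshold (adjusted p = 0.0527). Wt1 reached 134 against 123 CPM, then 146 against 115 CPM in controls, and its interaction of 2.01 (SE 0.78) was not called. For most genes above, a side effect in the knockout that differs from controls was thus not shown with these cells.

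**Figure D5:**
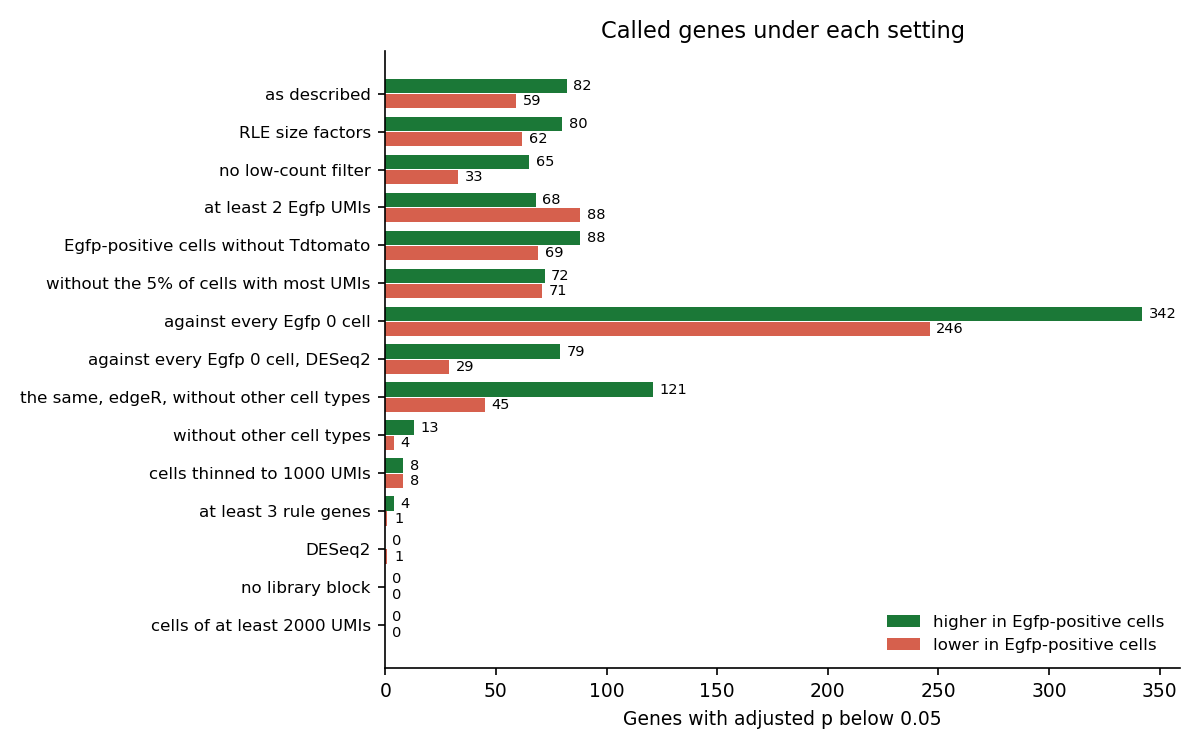
Number of genes with adjusted p below 0.05 (x axis) higher and lower in Egfp-positive knockout cells under each setting (y axis); all are edgeR fits with the library as a block unless the label says otherwise. Counts range from 0 and 0 with cells of at least 2000 UMIs to 342 and 246 against every Egfp 0 cell.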

How the data were processed

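Drop-seq counts of 4 heart libraries were used. The authors deposited 1 table of UMI counts for 30268 genes in 24849 cells, not normalized; mm10, STAR and Picard are named per the submitters' processing notes, and versions and parameters are not given in the sources used here. Library and group came from the labels, and 0 columns were left unused. The members and gene lists were chosen with earlier results of these data known.

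Cells were selected as stated in the report. Raw counts were summed per library and side, 4 sums in all, and fitted in edgeR 4.0.16 (R 4.3.3, limma 3.58.1) with TMM, filterByExpr, the library as a block and the quasi-likelihood test. The 11 marker genes of the rule with Egfp and Tdtomato, the 13 genes of the rule named above, entered the fit and were not tested. Tnnt2, Actc1, Myh6, Myh7 and the mitochondrial genes, which the selection capped, were not left out of the tests. The block pairs the sides because both come from the same library. The comparison with controls used 8 sums and an interaction term. DESeq2 1.42.0 was an alternative, as were other normalization, no filter, no block, at least 2 Egfp UMIs, no positive cells with Tdtomato, at least 2000 UMIs, thinning, at least 3 marker genes, and every Egfp 0 cell as the comparison group. No doublet caller was run; 1 alternative left out the top 5% of cells by UMIs. Levels are CPM, counts per 1000000 UMIs of a side. For an empty side, a fold was taken against 3 UMIs of that side and written as at least. Intervals are 95% Clopper-Pearson and, like the floors, cover counting error only. Thinning used 1 seeded draw. The tests were run first on simulated data with known changes. Python 3.11.15, numpy 2.4.6, scipy 1.17.1, pandas 2.3.3 and matplotlib 3.10.9 were used. Coordinates are GENCODE annotation of GRCm38, and promoters are RefSeq GRCm38.p6.

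Genes were named by rule: a followed list; up to 15 called genes per direction with the largest log2 fold change, the same sign in both libraries, at least 20 UMIs over both sides in each library and UMIs in at least 5 cells of the higher side; 2 to 4 genes per list by smallest p; and up to 5 genes per direction of the interaction. Other called members of a list are named without values, and genes called inside a class of cells were chosen after their values were seen.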

Additional observations from a re-analysis of the deposited data

Results flagged for a closer look

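The difference between the sides was called unlike in knockout and control libraries, by the interaction term of edgeR's quasi-likelihood test, for 3 genes. DESeq2 called 0 and 0, and so did edgeR without the library block. On the control E14.5 positive side, 12 cells, the Egfp share of 4.71% was not above the 4.84% of cardiomyocyte-rich cells. The interaction of Myl7 was 2.18 log2 units. That of Hbb-y was 2.33, with 477 of its 734 positive UMIs in the knockout at E13.5 coming from 1 cell. That of Kcne3, a potassium channel subunit, was -11.53. The Kcne3 value rests on 14 UMIs in 1 positive control cell at E13.5 and 9 UMIs in 1 negative knockout cell at E14.5.

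In 5 genes the knockout sides stood in opposite order at the 2 stages, with counting intervals that exclude 0 at each stage. These intervals cover no spread between cells. Cdkn1c was the 1 gene higher on the Egfp-positive side at E13.5. Its log2 ratio at E14.5 was -1.35, where most of its negative UMIs came from 1 cell. The other 4 were lower at the earlier stage. Their log2 ratio at the later one was 2.28 for Eln, 2.96 for Sfrp2, 4.18 for S100a6 and 1.74 for Fos. There is 1 library per stage, so the difference between stages was not tested, and the E14.5 negative side is 10 cells.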

How the results depend on the processing

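The sides called 82 genes higher and 59 lower with edgeR and the library as a block. The block pairs sides of the same library; with no replicate block the calls were 0 and 0, as they were inside cells with fewer than 2 mesothelial genes, inside mesothelial cells and for the interaction. DESeq2 gave 0 and 1, cells of at least 2000 UMIs 0 and 0, thinning to 1000 UMIs 8 and 8, at least 3 marker genes 4 and 1, and leaving out cells with markers of other types 13 and 4. Without the low-count filter 33 genes were lower. Against every Egfp 0 cell 342 and 246 were called, and 29 lower with DESeq2. With at least 2 Egfp UMIs DESeq2 called 9 and 18. In cells with fewer than 2 mesothelial genes, 7 and 3 became 0 and 1 with DESeq2, 32 and 25 with relative log expression, 38 and 15 without the filter, 41 and 40 with at least 2 Egfp UMIs, and 70 and 40 against every Egfp 0 cell. In mesothelial cells, 0 and 9 became 0 and 3 with DESeq2, 1 higher with relative log expression, 4 higher without the filter and 1 higher with at least 2 Egfp UMIs. For the interaction, 2 and 1 became 0 and 0 with DESeq2, 4 higher without the filter, 0 lower with at least 2 Egfp UMIs, and 7 and 13 against every Egfp 0 cell. The E13.5 positive share with mesothelial genes was 50% unthinned and 53.6% with at least 2 Egfp UMIs. The cause of these shifts was not tested. Signs turned with at least 3 marker genes for Kdr (0.077), Fabp4 (1.07), Igfbp5 (0.28) and Itga6 (0.23), and for Fabp4 when 1 library was left out (0.36 without E14.5, -2.98 without E13.5). Without cells of other types Igfbp5 was at 1.17. Hbb-y turned against every Egfp 0 cell (-0.80, and -1.02 with DESeq2). Against Egfp 0 cells without other types, Hbb-y was at -1.98, Hba-x at -2.29, Cdkn1c at 0.53, Igfbp5 at 0.99 and Itga6 at 0.076. The sides could not be fitted in mesothelial cells, since 0 negative cells were left at E14.5. Leaving out 1 library left a single pair, which gives values with no test. On the knockout E14.5 negative side 1 UMI is 14.7 CPM, and folds against an empty side used 3 UMIs, which are 44.0 CPM there.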
